A study of Vitis riparia with 12 samples.

Results

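A set of 217 genes had more transcript at day 21 than at day 7 in the shoot tips of Vitis riparia, a wild grapevine, both in vines kept under a long photoperiod and in vines moved to a short one. They are 0.724% of the 29970 genes in the files. Genes were taken from the group means of FPKM (a read count put on a common scale of transcript length and library size), where the ratios LD21/LD7 and SD21/SD7 both exceeded 1.5. SD21/SD7 had also to lie under 8 and the largest group mean at 5 FPKM or more, and the 3 libraries of each day could not overlap under either photoperiod. The values of both time comparisons chose the members, so their rises are given as a description and carry no test.

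The vines were of the genotype V. riparia PI588259, 6 years old, potted and grown in a greenhouse at 15 h of light for 30 days before they were randomized. Treatments began 5 days later, when 1 set stayed at 15 h (LD) and the other went to 13 h (SD). Tips spanning 4 nodes were cut after 7 and 21 days, and the 4 groups are called LD7, SD7, LD21 and SD21 here. Each group holds 3 libraries, with 5 vines behind every library. The study set the tips of the photoperiods against each other over time. Both days of LD carry the same treatment label, and their day was read from the titles. The later tips came from vines that were also older and had been longer in the greenhouse, and these cannot be told apart from the length of treatment.

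A growing shoot tip holds the apical meristem, young leaves and the internodes being laid down below it. In V. riparia a shortened day slows and then stops the growth of the tip and leads to dormant buds, while vines left in long days go on growing. The set is defined by a shared course over time and not by a pathway. The identifiers of the files are not paired with gene names or products in the sources used here, so no role is given to any member. Members are given by identifier in a few cases and otherwise by position as in the files, whose genome build is not given in the sources used here.

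Of 17213 genes with a largest group mean of 5 FPKM or more, 10.3% met the condition on the rise and on overlap under LD and 20.6% met it under SD. Both conditions were met by 248 genes, and 31 of these went past the upper limit on SD21/SD7, which left 217, or 1.26% of the 17213. The 248 genes were 13.9% of the 1781 that rose under LD in this sense and 7.00% of the 3544 that did so under SD. Of the 1781, 913 genes had a fall of the same size without overlap under SD, which is 51.3% of them and 5.3% of the 17213. Such a fall under SD was found in 34.6% of the 17213 and under LD in 9.37%. These shares are set by the same values that chose the members and are given as counts.

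Absolute depth is unknown, but the steps between low values, each worth 1 read, put SD7 replicate 1 at 1.58 times the depth of LD7 replicate 1, the shallowest library. The 10 most abundant genes held 16.2% to 21.3% of the FPKM of each SD21 library, and 4.81% to 9.94% of each of the other 9, which leaves a smaller share for other genes in SD21. In whole tips, fewer cells of a type and less RNA per cell cannot be told apart. Among the 17213 genes the median ratio of group means was 1.10 for LD21/LD7 and 0.848 for SD21/SD7, so the rises under SD stand against a lower median.

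**Figure D1:**
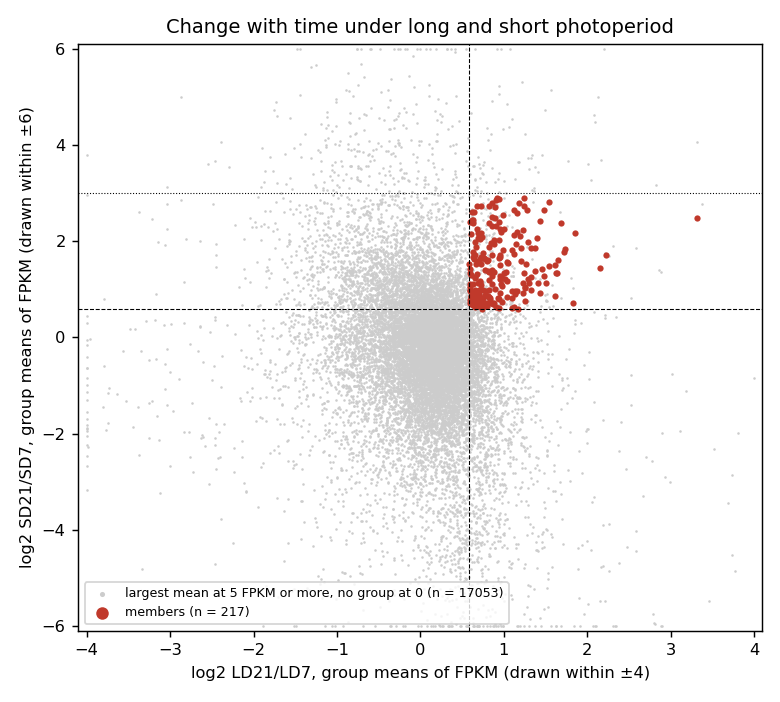
Change with time under LD (x axis, log2 of LD21/LD7) and under SD (y axis, log2 of SD21/SD7) from group means of FPKM. Grey points are the 17053 genes with a largest mean of 5 FPKM or more and no group at 0, red points the 217 members, dashed lines mark the ratio of 1.5 and the dotted line the ratio of 8. The members fill the upper right field and spread further upwards than to the right.

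The members mostly rose more under SD than under LD. The LD21/LD7 ratio ran from 1.5 to 9.96 with a median of 1.81, and SD21/SD7 from 1.5 to 7.47 with a median of 2.52. In 163 members the SD ratio was the larger and in 54 the LD ratio. The 2 ratios lay within a ratio of 5 to 4 in 92 members. SD21/SD7 was more than 2 times LD21/LD7 in 53 members, and the reverse held for 1. The ratio exceeded 2 under both photoperiods in 54 members and 3 under both in 7. A ratio over 4 was found in 3 members under LD and in 50 under SD.

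The days were also set against each other across photoperiods. In 154 of the 217 members every day 21 library of either photoperiod was above every day 7 library of either photoperiod, as in 3.22% of the 17213 genes. The rule used the same values and required this within each photoperiod, so the count is a description. Together the members held 0.720% ± 0.010 (SD, n = 3) of the FPKM in LD7, 0.625% ± 0.024 in SD7, 1.34% ± 0.18 in LD21 and 1.48% ± 0.13 in SD21. The summed FPKM of the members was 7429 ± 120 in LD7 and 13279 ± 1684 in LD21. Under SD it was 6487 ± 385 at day 7 and 16124 ± 1698 at day 21.

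Single libraries carried more of the day 21 levels than others. LD21 replicate 2 was the highest LD21 library in 118 members, or 54.4%, and in 33.0% of the 17213 genes. SD21 replicate 3 was the highest SD21 library in 113 members, or 52.1%, and in 24.7% of the 17213. LD21 replicate 1 was the lowest LD21 library in 122 members, or 56.2%, and in 40.3% of the 17213. Left out of the rule, LD21 replicate 2 reduced the count of members to 190, and leaving out LD21 replicate 1 raised it to 326. Groups of 2 libraries overlap less easily than groups of 3, which by itself adds genes.

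**Figure D2:**
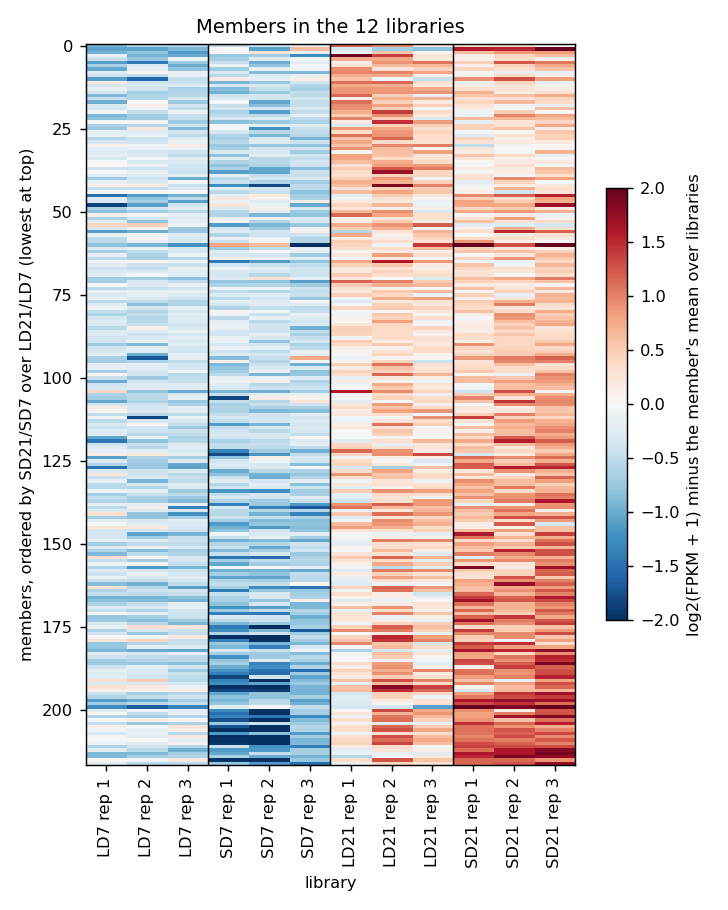
The 217 members (rows) in the 12 libraries (columns), as log2(FPKM + 1) minus the mean of that member over the libraries, ordered by the ratio of SD21/SD7 to LD21/LD7 with the lowest at the top. Most members near the top are redder in LD21 and those at the bottom darkest red in SD21, and some rows near the bottom are dark blue in SD7 replicates 1 and 2.

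The members with the largest rises under both photoperiods were mostly of low abundance. VIT_12s0028g04040 (chromosome 12, 4921855 to 4923312) stood at 0, 0 and 0.118 FPKM in the LD7 libraries and at 0.669, 0.321 and 0.184 in LD21. Under SD it stood at 1.12, 0 and 2.22 FPKM at day 7 and at 5.29, 5.01 and 8.30 at day 21. Its ratio of 9.96 under LD is thus one between very low values in which 2 of 3 libraries are listed at 0, and it was well above 1 FPKM only in SD21 and SD7 replicate 3. The LD ratio was 6.64 when LD7 replicate 1 or LD7 replicate 2 was left out singly, so that 1 LD7 library at 0 remained each time. The SD ratio was 5.58, or 3.72 without SD7 replicate 2.

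VIT_09s0096g00490 (chromosome 9, 11932564 to 11934432) was at 3.30, 0.899 and 0.599 FPKM in LD7 and 8.71, 5.22 and 3.47 in LD21, a ratio of 3.62. Under SD it went from 0.728, 0.652 and 0.985 to 1.44, 6.85 and 2.36 FPKM, a ratio of 4.50. SD21 replicate 2 carries much of that mean, and the lowest SD21 library lies below the highest LD7 library.

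A locus on sequence 3_random at 342230 to 344293 varied less among libraries. It stood at 2.07, 2.89 and 2.45 FPKM in LD7 and 9.93, 8.78 and 5.99 in LD21. In SD7 it stood at 1.81, 1.74 and 1.29 FPKM and in SD21 at 5.66, 5.50 and 6.24. All 6 day 21 libraries were above all 6 day 7 libraries, with ratios of 3.33 under LD and 3.60 under SD.

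A locus on chromosome 6 at 16667795 to 16670773 was the only abundant member among the 6 largest rises. Its LD7 libraries were at 32.3, 29.8 and 24.7 FPKM and its LD21 libraries at 77.5, 53.8 and 154. In SD7 it was at 99.4, 90.3 and 0, and in SD21 at 233, 140 and 277. The listed 0 stands beside levels near 90 in the same group, and without that library the SD21/SD7 ratio was 2.28 instead of 3.42.

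A locus on sequence not placed on a chromosome (Un, 1175260 to 1185034) went from a mean of 2.2 to 10.3 FPKM under LD and from 3.65 to 11.9 under SD. A locus on chromosome 10 at 6471518 to 6472742 went from 1.71 to 5.50 under LD and from 0.899 to 4.70 under SD. In both, the day 21 means of the photoperiods lay within the spread between libraries. Listed zeros occurred in 3 of the 217 members, the third being a locus on chromosome 1 at 5757279 to 5757845 whose LD ratio was 1.53 without the library at 0.

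Most members were of middle abundance. The largest group mean had a median of 19.6 FPKM, lay between 5 and 10 in 59 members, between 10 and 100 in 125, between 100 and 1000 in 29, and above 1000 in 4. It fell in SD21 for 143 members and in LD21 for 74.

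The most abundant member, on chromosome 18 at 11297039 to 11299715, had LD7 libraries at 752, 856 and 876 FPKM and LD21 libraries at 1007, 1325 and 1407. In SD7 it stood at 778, 851 and 903, and in SD21 at 1299, 1956 and 1764, where it ranked 65th of all genes. The day 7 groups overlap fully, and every day 21 library is above every day 7 library. Its ratio was 1.5 under LD and 1.98 under SD.

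A very short locus on chromosome 13 at 14521666 to 14521934 was next. It was at 522, 609 and 715 FPKM in LD7, 1406, 1853 and 1136 in LD21, 679, 669 and 858 in SD7, and 883, 1927 and 1688 in SD21. FPKM of loci this short is uncertain with reads of 43 bp, and 2 of the 217 members span under 300 bp. The groups LD21 and SD21 overlap fully in it.

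On chromosome 4 at 20801685 to 20803128 a locus stood at 982, 824 and 810 FPKM in LD7, 1513, 1650 and 1313 in LD21, 649, 669 and 760 in SD7, and 1018, 1107 and 1122 in SD21. On the FPKM without further scaling, its SD libraries lay below its LD libraries at both days. On chromosome 18 at 807720 to 809475 the means were 695 ± 58.4 FPKM (SD, n = 3) in LD7, 1113 ± 37.8 in LD21, 554 ± 22.1 in SD7 and 978 ± 49.6 in SD21.

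The remaining pair of the 6 most abundant members reached far higher levels in SD21 than in LD21. On chromosome 13 at 339994 to 342758 the LD libraries went from 103, 114 and 144 FPKM to 188, 254 and 275. The SD libraries of that locus went from 121, 151 and 107 to 693, 766 and 746, a ratio of 5.83. On chromosome 7 at 14952240 to 14954822 the means were 224 ± 27.5 FPKM in LD7, 355 ± 79.6 in LD21, 213 ± 13.7 in SD7 and 615 ± 29.9 in SD21.

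The photoperiods were compared at each day with limma on log2(FPKM + 1) over the 21848 genes that reached 1 FPKM in 3 or more libraries, with Benjamini-Hochberg adjustment over all of them. These comparisons are not among those of the rule, but they use the same libraries, and a member with low SD7 or high SD21 meets the condition under SD more easily. All 217 genes of the set passed the filter, and 215 passed it in the day 7 libraries alone. Every member has a largest group mean of 5 FPKM or more, whereas the genes tested include less abundant ones. The shares of members and of genes tested are thus not matched for abundance.

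At day 7, 3 members were called higher in SD7 and 8 lower, against 0.357% and 0.476% of all genes tested. That is 1.38% and 3.69% of the members. The SD7 libraries lay wholly above the LD7 libraries in 11.5% of members, with 11.1% among genes tested, and wholly below in 34.6%, with 13.7% among genes tested. The median log2 difference was -0.14 over the members and -0.03 over all genes tested. An unadjusted p under 0.05 was found in 77 members, or 35.5%, and in 14.9% of genes tested.

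Among called members, the furthest higher at day 7 was VIT_01s0026g01550 (chromosome 1, 10605156 to 10607755). The LD7 libraries were at 20.6, 15.6 and 19.8 FPKM and the SD7 libraries at 43.1, 52.5 and 36.7 (log2 difference 1.19 ± 0.23, SE, adjusted p = 0.045). VIT_07s0005g03190 (chromosome 7, 6020840 to 6021317) had LD7 libraries at 1.40, 1.63 and 1.10 FPKM and SD7 libraries at 3.55, 4.70 and 3.14 (1.01 ± 0.20, adjusted p = 0.045). In both, every SD7 library was above every LD7 library. The second of them was also higher at day 21, with 3.17, 5.70 and 3.78 FPKM in LD21 and 6.06, 7.30 and 7.30 in SD21 (0.62 ± 0.20, adjusted p = 0.015).

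Among called members, the furthest lower was VIT_06s0080g01090 (chromosome 6, 21224732 to 21225711), with 165, 172 and 145 FPKM in LD7 and 38.0, 32.0 and 89.7 in SD7 (log2 difference -1.72 ± 0.32, SE, adjusted p = 0.042). At day 21 its groups overlapped, at 225, 365 and 283 FPKM in LD21 and 361, 342 and 402 in SD21. VIT_02s0025g02490 (chromosome 2, 2165119 to 2166005) went from 5.07, 5.11 and 5.32 FPKM in LD7 down to 0.625, 0.541 and 1.97 in SD7 (-1.66 ± 0.32, adjusted p = 0.045). In SD21 it reached 3.60, 7.98 and 8.03 FPKM, and in LD21 7.55, 14.7 and 11.5. Also lower, a locus on chromosome 1 at 4117190 to 4117958 went from 57.5, 64.6 and 58.6 in LD7 to 16.6, 13.2 and 31.2 in SD7 (-1.61 ± 0.29, adjusted p = 0.040). SD7 replicate 3 was the highest of its group in all 3 of these lower members. Of the 11 calls, 2 higher and 5 lower reached 1 on the log2 scale.

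The day 7 calls were easily lost when a single library was left out. The count of 11 was 0 without LD7 replicate 1, LD7 replicate 2, SD7 replicate 1 or SD7 replicate 2 (limma, with 58, 59, 68 and 66 members at an unadjusted p under 0.05). It was 1 without LD7 replicate 3, 3 without SD21 replicate 1, and 5 without LD21 replicate 2 or SD21 replicate 3. Without SD7 replicate 3 it was 13, of which 4 were among the 11. Each of the 5 calls with values above was lost without any 1 of LD7 replicates 1, 2 or 3 or SD7 replicates 1 or 2, where the highest adjusted p was 0.192, 0.153, 0.164, 0.168 and 0.161 for the 5 in turn. The 2 higher calls were also lost without SD7 replicate 3 (adjusted p = 0.0656 for each), and each of the 5 without 1 or more of the day 21 libraries, taken singly (adjusted p from 0.0514 to 0.0663). With each library left out, the log2 differences of the 5 kept their direction. They ran from 1.06 to 1.32, 0.88 to 1.11, -1.44 to -2.17, -1.49 to -1.96 and -1.36 to -1.95 in turn. The split of 3 higher and 8 lower became 1 and 7 on quantile-normalized values and 2 and 3 with median-ratio scaling.

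At day 21, 71 members were called higher in SD21 and 20 lower, where 24.6% of all genes tested were higher and 43.7% lower. These are 32.7% and 9.22% of the members, and 126 members were not called. The SD21 libraries lay wholly above LD21 in 33.6% of members and wholly below in 7.83%, with 25.3% and 44.5% among genes tested. The median log2 difference was 0.22 over the members and -0.30 over all genes tested. Because each member had to rise under SD, a shift towards higher SD21 levels is in part built into the choice. Quantile normalization, which moved the median of all genes to 0.01, gave 104 higher and 9 lower members, and median-ratio scaling, which moved it to -0.01, gave 105 and 4. All genes split into 33.8% higher and 33.0% lower after the first and 33.5% and 33.7% after the second.

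**Figure D3:**
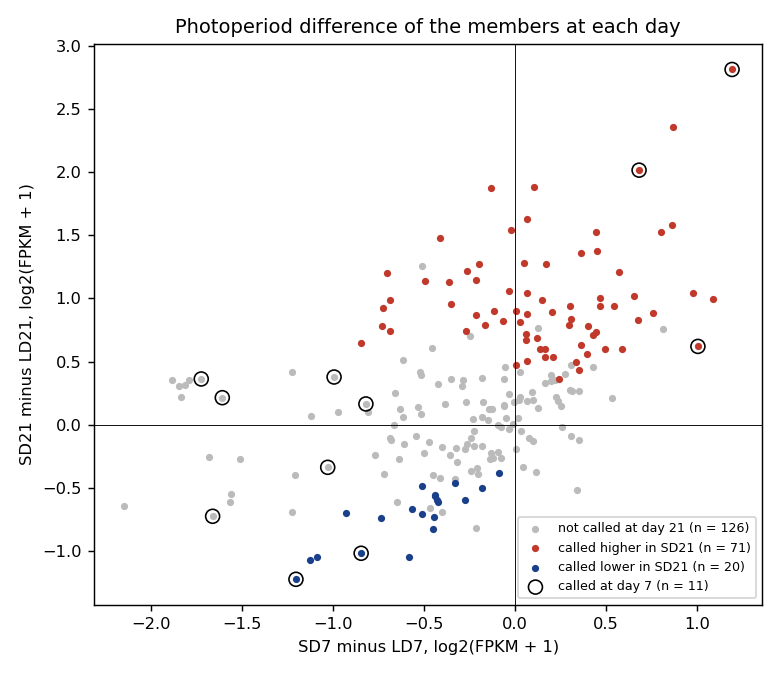
Difference between photoperiods at day 7 (x axis, SD7 minus LD7) and at day 21 (y axis, SD21 minus LD21) on log2(FPKM + 1), for the 217 members. Red points were called higher in SD21 (71), blue points lower (20), grey points not called (126), and black rings mark the 11 members called at day 7. The grey points at the far left are members that were low in SD7 and not called at day 21.

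VIT_01s0026g01550, already higher in SD7, also had the largest called difference at day 21 with a pseudocount of 1. Its LD21 libraries were at 40.9, 39.7 and 23.6 FPKM and its SD21 libraries at 292, 186 and 264 (log2 difference 2.81 ± 0.23, SE, adjusted p = 9.7e-07). VIT_12s0028g04040, with its values above, was next (2.36 ± 0.35, adjusted p = 9.6e-05), and with a pseudocount of 0.1 it came first, at 3.77 against 2.85. The third, on chromosome 11 at 2543891 to 2547079, had 16.7, 20.5 and 22.9 FPKM in LD21 and 82.0, 76.7 and 92.3 in SD21 (2.02 ± 0.14, adjusted p = 2.4e-07). It was also called higher at day 7, with a mean of 12.7 FPKM ± 0.66 (SD, n = 3) for LD7 and 21.1 ± 2.96 for SD7 (adjusted p = 0.049), a call lost without any 1 of the 6 day 7 libraries (adjusted p up to 0.192).

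A locus on sequence 12_random at 680638 to 681752 was level at day 7, with 1.70, 1.73 and 2.2 FPKM in LD7 and 1.51, 2.64 and 2.21 in SD7. It reached 3.65, 3.61 and 3.36 in LD21 and 14.8, 14.6 and 18.1 in SD21 (log2 difference 1.88 ± 0.16, SE, adjusted p = 1.2e-06). All 4 kept their calls at day 21 with each library left out. Among the abundant members given above, that on chromosome 13 at 339994 differed by 1.63 ± 0.18 (adjusted p = 8.7e-06) and that on chromosome 7 at 14952240 by 0.82 ± 0.17 (adjusted p = 0.00094). Without further scaling, the most abundant, on chromosome 18 at 11297039, differed by 0.42 ± 0.18 and was not called (adjusted p = 0.054). Median-ratio scaling divides the LD21 libraries by 1.10 to 1.15 and the SD21 libraries by 0.858 to 0.922. It thus widens a gap in this direction, and this member was not followed through it. In 27 of the 71 higher members the difference was at least 1 on the log2 scale.

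Among members lower in SD21, VIT_02s0025g01240 (chromosome 2, 1208152 to 1209672) kept a similar gap at both days on the FPKM without further scaling. It stood at 30.0, 31.3 and 20.4 FPKM in LD7 and 9.56, 11.2 and 12.6 in SD7, then at 37.8, 41.7 and 52.3 in LD21 and 18.6, 18.6 and 17.0 in SD21. The log2 difference was -1.20 ± 0.17 (SE, adjusted p = 0.022) at day 7 and -1.22 ± 0.17 (adjusted p = 6.7e-05) at day 21, and its rise was 1.61 times under LD and 1.62 times under SD. The day 7 call was lost without LD7 replicate 1 or 2 or SD7 replicate 1 or 2, with adjusted p from 0.0547 to 0.112. After quantile normalization the difference was -1.21 at day 7 and -0.96 at day 21. With median-ratio scaling it was -1.18 and -0.89, so the gap at day 21 was then the smaller.

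VIT_01s0127g00700 (chromosome 1, 8036753 to 8037995) was at 35.2, 87.8 and 47.5 FPKM in LD21 and at 21.6, 25.6 and 27.3 in SD21 (log2 difference -1.07 ± 0.36, SE, adjusted p = 0.020). That call was lost when LD21 replicate 2 (adjusted p = 0.0846) or SD21 replicate 1 (0.0616) was left out, after quantile normalization (0.0614) and after median-ratio scaling (0.0929). Next was the locus on chromosome 8 from 1699122 to 1718463, at 20.6, 20.9 and 18.1 in LD21 and 9.76, 8.66 and 8.81 in SD21 (-1.05 ± 0.16, adjusted p = 0.00010). The fourth, on chromosome 14 at 23647670 to 23648618, was at 18.7, 33.7 and 20.1 in LD21 and 9.48, 9.44 and 14.0 in SD21 (-1.05 ± 0.23, adjusted p = 0.0017). Without further scaling, the abundant member on chromosome 4 at 20801685 was lower by a smaller step (-0.46 ± 0.13, adjusted p = 0.0092). Median-ratio scaling, with the divisors given above, narrows a gap in this direction, and this call was not followed through it. In 5 of the 20 lower members the difference was at least 1 on the log2 scale, without further scaling. After quantile normalization and median-ratio scaling, the locus on chromosome 8 differed by -0.70 and -0.73. That on chromosome 14 differed by -0.71 and -0.73, and both stayed called.

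**Figure D4:**
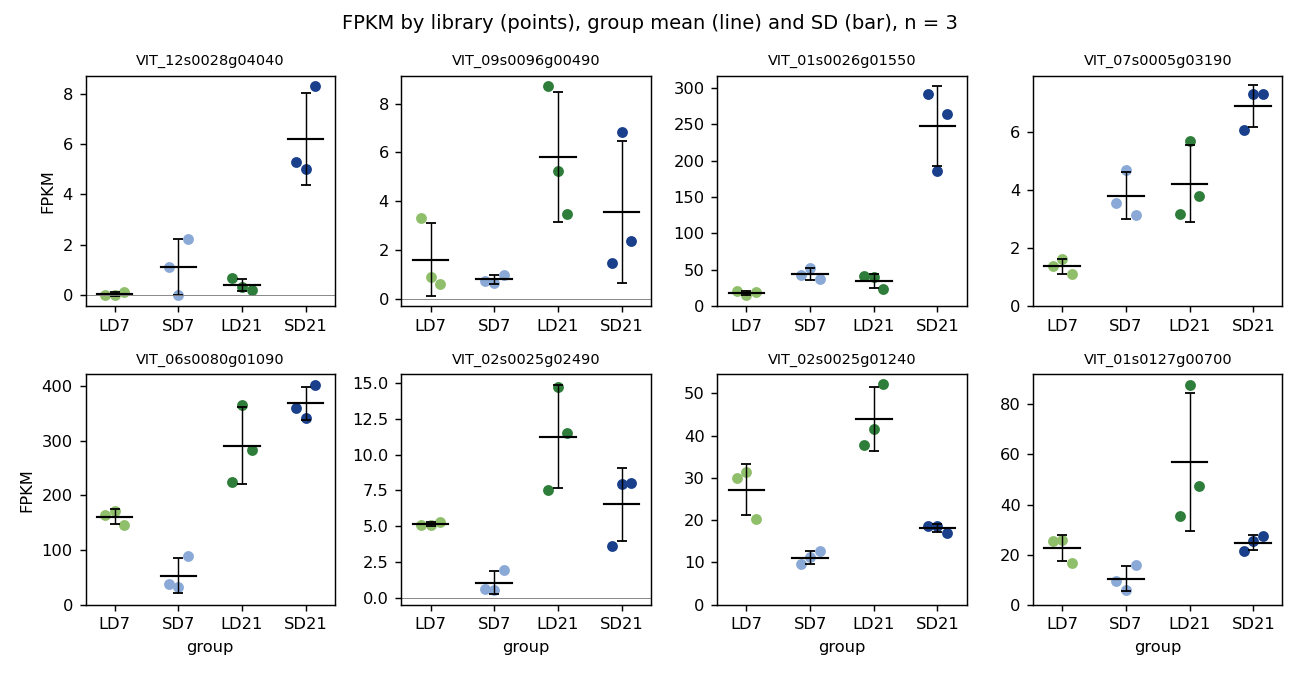
FPKM (y axis, from 0) in the 12 libraries by group (x axis) for the 8 members given by identifier, with points for libraries, a line for the group mean and a bar for the SD (n = 3). In VIT_06s0080g01090 and VIT_02s0025g02490 the SD7 libraries lie below those of LD7, and in VIT_01s0026g01550 the SD21 libraries lie far above all others.

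The ratio of the 2 rises, which the rule bounds and which therefore has no test, was most uneven in 2 kinds of member. In the first, day 7 levels were alike and SD21 went far higher. A locus on Un at 17252508 to 17266683 stood at 45.8 ± 4.88 FPKM (SD, n = 3) in LD7, 41.8 ± 5.80 in SD7, 70.1 ± 17.9 in LD21 and 255 ± 32.7 in SD21, so SD21/SD7 was 3.98 times LD21/LD7. In the second, SD7 was low. One on chromosome 16 at 6870529 to 6871530 was at 53.0, 50.6 and 59.6 FPKM in LD7 and 12.6, 6.77 and 30.6 in SD7, then at 65.4, 127 and 78.1 in LD21 and 118, 117 and 98.2 in SD21, a ratio of 4.03 times.

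The highest ratio combined both. On chromosome 15 at 16452428 to 16456023 the libraries were at 10.4, 8.34 and 8.25 FPKM in LD7, 6.95, 5.09 and 3.71 in SD7, 11.2, 16.9 and 15.2 in LD21, and 28.6, 31.1 and 44.3 in SD21, and SD21/SD7 was 4.12 times LD21/LD7. At the other end, a locus on chromosome 12 at 8782407 to 8784403 went from 1.94, 2.76 and 2.72 to 11.3, 9.53 and 5.39 under LD and from 2.86, 3.41 and 3.93 to 5.96, 6.21 and 4.63 under SD. Its LD ratio was 3.54 and its SD ratio 1.65.

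A number of members were low in SD7. In 27 members, 12.4% of the set, the SD7 mean was under 0.5 of the LD7 mean, as it was in 2.86% of the 17213 genes. This limit was chosen after the values were seen, and a low SD7 mean raises SD21/SD7, so the share is in part built in. Their SD21/SD7 ratio had a median of 5.26 and their LD21/LD7 ratio a median of 1.92. At day 21 their median SD21/LD21 ratio was 0.808, near the median of 0.782 over the 17213 genes. By limma, 0 of the 27 were called higher and 4 lower (14.8%) at that day. Of the 492 genes that make up the 2.86%, 34.1% were called higher and 21.3% lower at day 21. Every SD7 library was below every LD7 library in 25 of the 27 (92.6%) and in 60.4% of the 492, and 6 of the 27 (22.2%) and 12.4% of the 492 were called at day 7. The choice of a low SD7 mean favours both counts at day 7.

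SD7 replicate 3 stood apart within these 27 members. It was the highest SD7 library in 22 of them, or 81.5%, and in 41.3% of all genes with the same low ratio. The median ratio to the LD7 mean was 0.558 in SD7 replicate 3 and 0.266 in the mean of SD7 replicates 1 and 2. The SD7 level was thus lower still without SD7 replicate 3, and the part of that library in the result was not tested further.

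Neighbouring genes were members together in a few places. Of the 217, 24 lay directly beside another member in the gene order of the files, or 11.1%, in 11 runs. The same count for genes that fell with time under both photoperiods, by the mirrored rule, was 24 of 336, or 7.14%. It was 20.3% of the 1781 genes that rose under LD and 33.2% of the 3544 that rose under SD, which are larger sets. With at most 1 gene between neighbours there were 28 members in 12 runs, 12.9%, against 11.0% of the 336. Adjacent genes can be near-identical copies between which reads are split, and the value of any 1 gene in a run is uncertain for that reason.

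The most abundant runs lay on chromosome 16. From 6676141 to 6741091, 3 members summed to 163, 144 and 181 FPKM in LD7, 39.9, 19.2 and 102 in SD7, 203, 380 and 252 in LD21, and 335, 359 and 296 in SD21. From 6847558 to 6904333, a further 3 summed to 148, 142 and 172 in LD7, 37.5, 21.1 and 89.5 in SD7, 205, 396 and 243 in LD21, and 347, 344 and 289 in SD21. All 6 are among the 27 members with low SD7, and both sums have the same order of libraries in SD7 and in LD21, with SD7 replicate 3 and LD21 replicate 2 highest.

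Between these runs lie the 2 genes just past the upper limit on SD21/SD7. The locus at 6813590 to 6813930 had a ratio of 8.03 and that at 6743246 to 6744192 a ratio of 8.14, and they stood at 111 and 72.9 FPKM in LD7, 35.1 and 23.2 in SD7, 226 and 140 in LD21, and 282 and 189 in SD21. Like the 6 members on either side, they were lowest in SD7 and close to each other in LD21 and SD21. None of the 6 members was called at day 7 or day 21.

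A different course was seen in another run on chromosome 16 and in one on 12_random. At 18109397 to 18125942 on chromosome 16, 2 members summed to 70.6 ± 3.11 FPKM (SD, n = 3) in LD7, 51.5 ± 1.8 in SD7, 160 ± 55.0 in LD21 and 301 ± 95.9 in SD21. On 12_random at 664506 to 681752, 2 members summed to 4.37 ± 0.34 in LD7, 4.57 ± 0.95 in SD7, 7.41 ± 0.36 in LD21 and 29.1 ± 3.74 in SD21. In both runs both members were called higher in SD21.

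On chromosome 10 from 6456019 to 6482508, 3 adjacent members summed to 20.7 ± 6.08 FPKM in LD7, 9.10 ± 3.47 in SD7, 42.7 ± 8.93 in LD21 and 50.9 ± 7.42 in SD21. On chromosome 12 from 8819491 to 8845790, 3 members of 4 consecutive genes summed to 5.65 ± 0.92 in LD7, 7.33 ± 1.12 in SD7, 16.9 ± 7.72 in LD21 and 19.3 ± 0.50 in SD21. The LD21 libraries of this run were far apart, at 23.8, 18.4 and 8.59.

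The other 6 runs hold 2 members each. A low SD7 sum was also seen on chromosome 10 from 1429981 to 1444120, with 58.0 ± 10.9 FPKM in LD7, 30.9 ± 8.20 in SD7, 103 ± 19.0 in LD21 and 106 ± 20.9 in SD21. On chromosome 8 from 7114782 to 7124512 the sums were 12.7 ± 4.73 in LD7, 3.25 ± 2.52 in SD7, 25.0 ± 7.21 in LD21 and 16.3 ± 5.52 in SD21. Without further scaling, the photoperiods were close at both days on chromosome 13 from 7578629 to 7598079. The sums there were 17.2 ± 3.27 in LD7, 18.6 ± 2.33 in SD7, 33.6 ± 2.97 in LD21 and 40.8 ± 8.15 in SD21. On chromosome 8 from 11777898 to 11788248, where 1 of the 2 members was called higher in SD21, the sums were 10.6 ± 0.34 in LD7, 10.7 ± 1.00 in SD7, 18.1 ± 4.29 in LD21 and 21.2 ± 4.03 in SD21. On chromosome 7 from 6008971 to 6021317 the SD sums were higher at both days, at 9.31 ± 1.71 against 5.49 ± 0.08 and then 16.6 ± 1.51 against 10.8 ± 1.57, and both members were called higher in SD21. The 2 members on chromosome 1 from 5753795 to 5757845 touch each other and summed to 3.75 ± 1.51 in LD7, 2.99 ± 0.20 in SD7, 7.22 ± 1.97 in LD21 and 10.5 ± 2.94 in SD21.

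**Figure D5:**
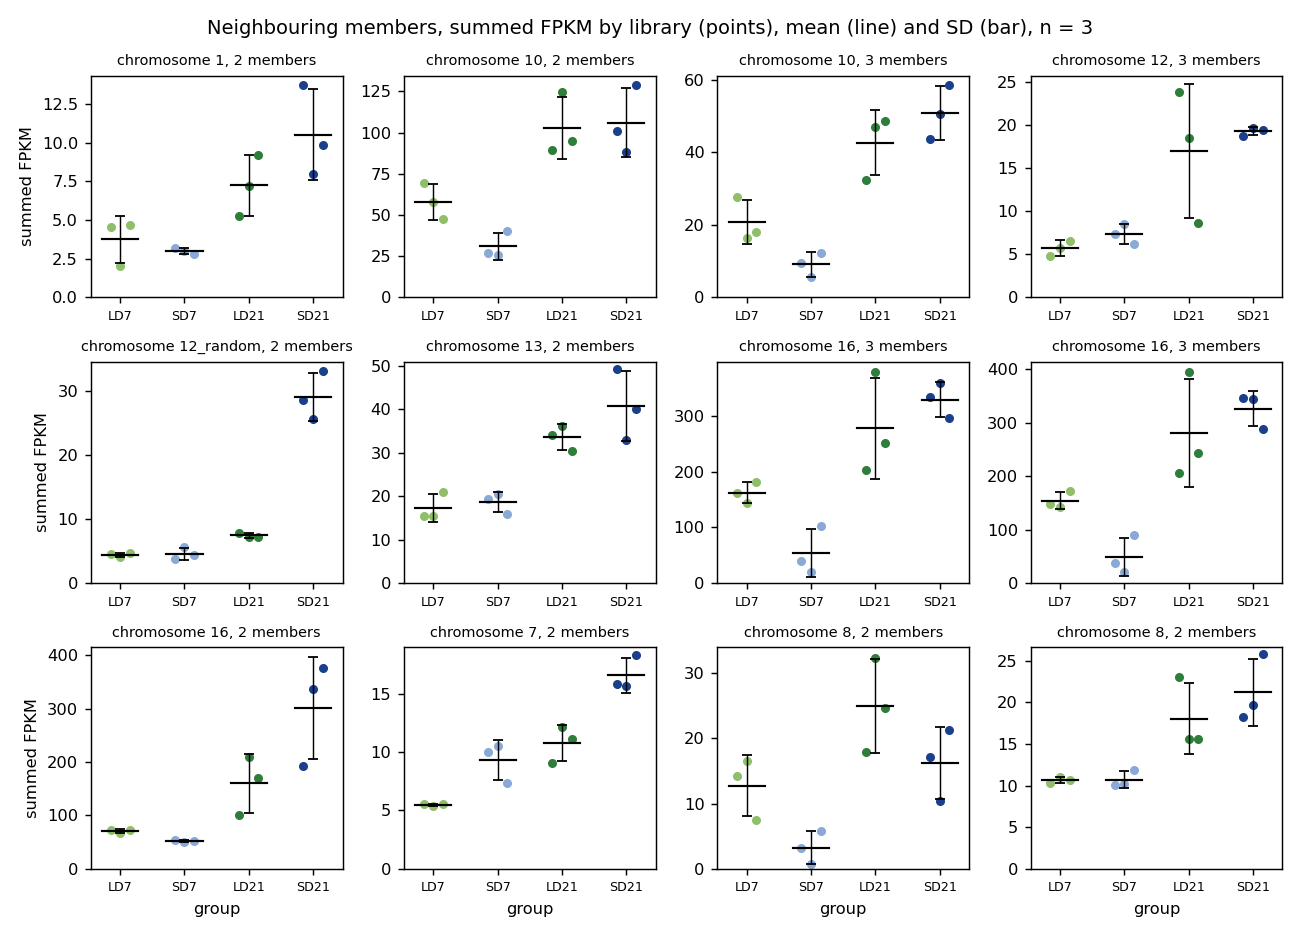
Summed FPKM of the members (y axis, from 0) in the 12 runs of neighbouring members, by group (x axis), with points for libraries, a line for the mean and a bar for the SD (n = 3). On this FPKM without further scaling, the runs of 3 members on chromosome 16 are low in SD7 and alike in LD21 and SD21, and the run on 12_random is high in SD21.

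Across the 19 numbered chromosomes, members made up from 0.332% of the genes at 5 FPKM or more on chromosome 15 (2 of 603) to 2.28% on chromosome 16 (14 of 614). The 6 members of the abundant runs are part of the latter count. Chromosome 1 held 17 members, chromosome 8 held 16 and Un held 21. Members were shorter in genomic span than genes at that abundance, with a median of 2153 bp against 3749 bp, and the 336 genes that fell under both had a median of 2161 bp.

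At the lower limit, the member nearest the ratio of 1.5 lay on chromosome 11 at 10203044 to 10204894, with 168 FPKM in LD7 and 253 in LD21, and next came one on chromosome 7 at 1440658 to 1441017, with 67.4 in SD7 and 101 in SD21. Just outside were a locus on chromosome 8 at 19704983 to 19705934, with 328 and 492 FPKM in LD7 and LD21, and one on chromosome 18 at 19720725 to 19740267, with 41.8 and 62.7. These 4 genes differ from the limit by less than the spread between libraries, and 662 genes met every other condition but missed the ratio.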

How the data were processed

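The 12 shoot tip libraries were sequenced to reads of 43 bp, according to the labels' protocols. The authors deposited FPKM per gene and library, per the file headers, and the tools named in the submitters' processing notes are Cufflinks 2.2.1, TopHat2 2.0.13, Bowtie2 2.2.4, cutadapt 1.8.1 and FastQC 0.11.3. No annotation, parameter or strand setting is given in the sources used here. The third SD21 library has a value column named for replicate 2, but its values differ, and it was used as replicate 3. Since 0 of the 29970 identifiers could be found in the reference gene table, lists by gene name, promoter motifs and tissue markers were not analysed and no sequence is shown.

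Libraries were joined by identifier and the rule was applied to group means. The members, the limits and the tests were chosen with earlier results of these data known. Photoperiods were compared with limma 3.58.1 in R 4.3.3, with group means over all 12 libraries (1 shared spread, since 3 libraries give few degrees of freedom), a pseudocount of 1, eBayes with trend and robust, and adjusted p under 0.05. The log2(FPKM + 1) scale understates the change of low genes. The model was tested on simulated data. P-values weigh a difference against the spread between replicates of 5 vines, shared over the groups. For low genes (mean below 0.3 FPKM), 51.0% to 60.7% of ratios between libraries lay within 0.005 (log2) of ratios of whole numbers up to 5, against 1.69% to 6.92% at a shifted position, which gave relative depth. Counting intervals cannot be given from FPKM. Named members were, in each list, those with the largest smaller rise, the largest group mean, the most uneven rises, the largest called photoperiod differences and the ratios nearest the limit. At most 2 identifiers are printed per direction of a comparison, and other members are given by position. Python 3.11.15 was used.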

Additional observations from a re-analysis of the deposited data

Results flagged for a closer look

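In 8 members every SD7 library lay below every LD7 library and every SD21 library above every LD21 library, so that the photoperiod difference had opposite directions at the 2 days, and in 0 members the reverse held. The 8 are 3.69% of the members. Of all 17213 genes with a largest group mean of 5 FPKM or more, 3.08% had the same pattern and 3.24% the reverse. The rise under SD that the rule requires favours low SD7 with high SD21. The difference between the days was not tested, because it equals the difference between the rises that chose the members. Of the 8, the locus on chromosome 7 at 18930482 to 18932500 had 8.99, 10.4 and 7.74 FPKM in LD7 and 4.79, 6.07 and 4.87 in SD7, then at 10.9, 15.3 and 15.4 in LD21 and 25.7, 27.8 and 31.4 in SD21. The locus on chromosome 2 at 2570929 to 2576016 had means of 16.6 in LD7, 12.7 in SD7, 29.4 in LD21 and 65.7 in SD21. Of the 8, 7 were called higher in SD21 at day 21 by limma, as were 24.6% of all genes tested. The 8 were picked for SD21 libraries above all LD21 libraries, so those calls are largely built into the choice. At day 7, 0 of the 8 were called (limma, where 77 of all 217 members had an unadjusted p under 0.05).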

How the results depend on the processing

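The count of 217 members was 54 with a ratio of 2 in place of 1.5, 582 with 5 to 4, and 385 without the condition on overlap. With each library left out it ran from 190 to 326. Quantile normalization gave 222 members, 163 of them among the 217, and median-ratio scaling gave 176, with 141 shared. Limits of 1 and 10 FPKM gave 288 and 158, and 248 remained without the upper limit. The 11 members called at day 7 became 5 with median-ratio scaling, 1 without the filter on low values, 5 in limma without the trend, 4 with only the groups compared, and 0 to 13 with each library left out. A replicate block reduced the count to 3. That block was not used in the main fit. At day 7 same-numbered libraries did not deviate together, with correlations of -0.069 to 0.052. At day 21 theirs were all above 0, from 0.027 to 0.203, and those of differently numbered libraries ran from -0.168 to 0.145, so the choice is less clear there. The 91 members called at day 21 ranged from 82 to 96 with each library left out, and were 94 under that block, 84 with only the groups compared, and 113 and 109 with the scalings. None of the members named for the largest called photoperiod differences reversed. Other called members with values in the text were not followed singly through these settings. Depth limits the lowest members, whose ratios rest on few reads.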
